A study of Drosophila melanogaster with 18 samples.

Results

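The response to RU486 was compared between the heads of elav-GS-Gal4 flies and the thoraces of Act88F-GS-Gal4 flies, with the question of how far the drug's effect on the transcriptome differs between these samples. The members are 12 of the 18 RNA-seq samples of the series, in 4 groups of 3. They were chosen by stock, tissue and treatment: elav-GS-Gal4 heads on 100 µM RU486 for 10 days, elav-GS-Gal4 heads on the ethanol solvent (control), Act88F-GS-Gal4 thoraces on 100 µM RU486 for 10 days, and Act88F-GS-Gal4 thoraces on ethanol. All flies were males that had spent 4 days on normal food before the treatment. The labels name no UAS target transgene in either stock, and they do not say whether replicates came from separate cultures, so the p-values measure the spread between these samples only. For each gene, the change with RU486 is the log2 ratio of RU486 to control in 1 tissue, and the log2 difference is the head change minus the thorax change, so a positive value means that the head change was the higher of both. Tissue and stock differ together here, and they cannot be told apart.

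GeneSwitch is a fusion of the Gal4 DNA-binding domain with the ligand-binding domain of the progesterone receptor and an activation domain, and it is switched on by the antiprogestin RU486 (mifepristone). The elav promoter drives it in neurons, and the Act88F promoter drives it in the indirect flight muscles, which fill most of the thorax and are among the tissues richest in mitochondria. Fly heads hold brain, eyes, fat body, the taste and smell organs and a little muscle. A stock with a GeneSwitch driver and no target is meant to respond to the drug little or not at all.

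The 12 libraries held between 34020840 and 73692587 reads on genes, and 11388 genes passed the filter on low counts. The sum of 11 photoreceptor transcripts was 60301 to 84284 CPM (reads scaled to library size) in heads and 199 to 295 CPM in RU486 thoraces, and the sum of 9 flight muscle transcripts was 30009 to 31760.5 CPM in control thoraces, 13010.0 to 26670.0 CPM in RU486 thoraces and 2994 to 5437 CPM in heads. Thoraces also held midgut markers, at 10461 to 15236 CPM, and neuron markers, at 1494 to 2115 CPM against 4368 to 6632 CPM in heads. 3 control libraries stood apart from their group. Head controls 1 and 2 held abdominal transcripts: their testis markers summed to 4402 and 1187 CPM against 177 to 245 CPM in head control 3 and the RU486 heads, their accessory gland markers to 1420 and 342 CPM against 4.39 to 5.34 CPM, and their midgut markers to 1646 and 489 CPM against 1.90 to 2.54 CPM. Thorax control 1 held photoreceptor transcripts at 2347 CPM against 160 to 295 CPM in the other thoraces. The part of this material in each result was not tested, so values are given with and without these libraries where they differ. Reads that the files list outside genes were 23.7 to 29.9% of the file totals in thorax controls, 18.6 to 19.8% in RU486 thoraces and 18.7 to 20.9% in heads. The files list 0 reads as not aligned in every head library and 774393 to 2646573 in the thorax libraries. The head and thorax percentages may therefore not be on the same basis.

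**Figure D1:**
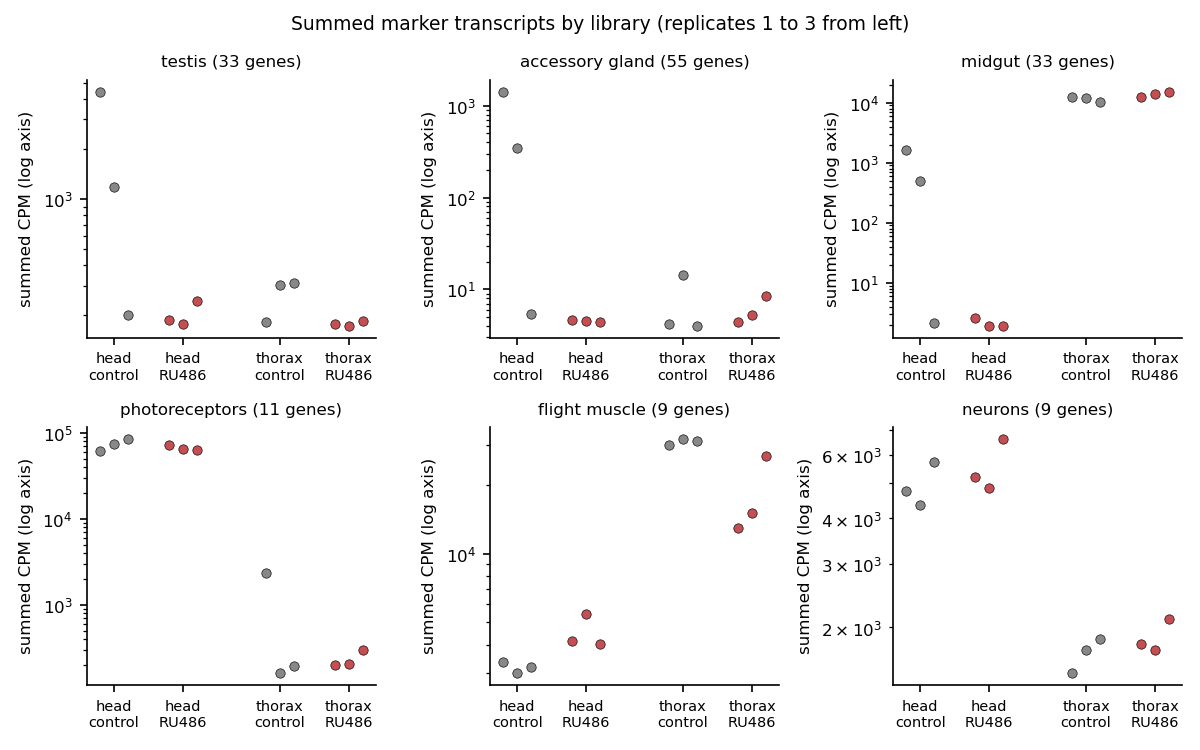
Summed CPM of 6 marker lists (log axes) in each of the 12 libraries, grey for control and red for RU486, with replicates 1 to 3 from left to right in each group. Head controls 1 and 2 rise above the other heads for testis, accessory gland and midgut, and thorax control 1 rises above the other thoraces for photoreceptors.

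The drug response differed between the samples for many genes. With an adjusted p under 0.05, the difference was higher (head change above thorax change) for 1974 genes, 17.3% of those tested, and lower for 1284 genes, 11.3%. In the same fit, 712 genes (6.25%) rose and 883 genes (7.75%) fell in RU486 heads, and 1509 genes (13.3%) rose and 2150 genes (18.9%) fell in RU486 thoraces. Over the 9232 genes with a mean of at least 1 CPM in both tissues, Pearson's r of the 2 changes was 0.0433 and Spearman's rho 0.0179, given as a description across genes, which are not independent replicates. Without head controls 1 and 2, which leaves 1 head control, 1132 differences were higher and 610 lower, of which 1034 and 468 were also called with all libraries, and the head calls fell to 103 higher and 12 lower. With libraries scaled to their total counts alone, the median difference of all genes moved from -0.0184 to -0.236, and the calls turned to 1243 higher and 2723 lower (31.3% higher, against 60.6% with trimmed mean of M-values [TMM] scaling). Values from here on are on the TMM scale. Leaving out single libraries moved the lower differences from 342 (without RU486 head 2) to 2330 (without head control 3), and the higher differences from 1352 to 2619 without the same libraries.

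Most called differences belonged to genes that were called in thoraces and not in heads. Among genes measured in both tissues, 1912 differences were higher, and 1528 of these (79.9%) belonged to genes that fell in thoraces and were not called in heads. Another 163 rose in heads and were not called in thoraces, and 106 rose in heads and fell in thoraces. Of the 866 lower differences, 531 (61.3%) belonged to genes that rose in thoraces and were not called in heads. Another 214 fell in heads and were not called in thoraces, and 33 fell in heads and rose in thoraces. A missing call does not show that a gene was unchanged. Leaving out single libraries gave 239 to 1800 higher and 8 to 2894 lower calls in heads, so these shares depend on which libraries were fitted. The highest of these counts, 1800 and 2894, came without head control 3, which leaves head controls 1 and 2. The parts of power and of abdominal transcripts in these shares were not tested. The 2156 genes measured in 1 tissue or in neither gave 62 higher and 418 lower differences. In these bulk samples, fewer cells of a type and less RNA per cell cannot be told apart.

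**Figure D2:**
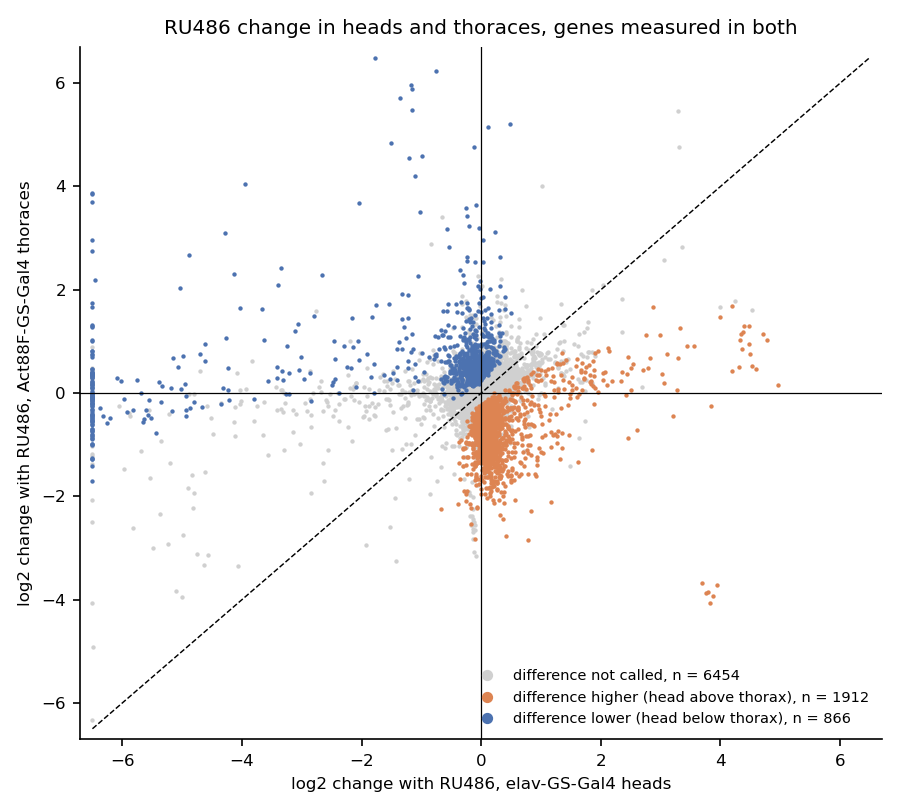
Log2 change with RU486 in heads (x axis) against thoraces (y axis) for 9232 genes measured in both tissues, coloured by the call of the difference. The dashed line marks equal changes, and genes beyond 6.5 are drawn at the edge. Most called genes lie along the vertical line of no head change: 1912 differences are higher and 866 lower.

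Genes of mitochondrial function fell in RU486 thoraces and changed less in RU486 heads, where the respiratory chain genes were slightly raised. Of 223 tested genes on the mitochondrial lists, 172 differences were higher and 1 was lower, with a median of 1.16 against -0.02 over all tested genes. Their median change was 0.12 in heads, where 6 genes rose and 1 fell, and -1.0 in thoraces, where 4 rose and 184 fell. For 68 oxidative phosphorylation genes the median head change was 0.25, with 67 above 0, 4 called higher and 0 called lower. In 56 of the 68 every RU486 head lay above every head control, against 1844 of 11388 tested genes. Their mean was 6.87, 6.92 and 6.99 log2 CPM in head controls and 7.09, 7.25 and 7.09 in RU486 heads. Without head controls 1 and 2 the median difference was 1.06, with 141 higher and 0 lower calls, and no gene of these lists was called in heads. Flight muscle markers moved with them, from a sum of 30009 to 31760.5 CPM in control thoraces to 13010, 15135 and 26670 CPM in RU486 thoraces 1, 2 and 3, with 4 of 9 called lower, and their part in the mitochondrial fall was not tested. Levels in control thoraces were well above those in heads, so the thorax fall brought the RU486 thoraces towards the head level without reaching it: the mean over these genes was 5.3 to 5.39 log2 CPM in head controls, 5.42 to 5.49 in RU486 heads, 7.0 to 7.09 in thorax controls and 5.92 to 6.27 in RU486 thoraces.

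The respiratory chain passes electrons from NADH and succinate to oxygen and makes ATP. All 4 subunits of complex II, succinate dehydrogenase, differed, with a median difference of 1.71. SdhA, its flavoprotein subunit, was at 277, 269 and 296 CPM in head controls and 377, 464 and 342 CPM in RU486 heads. In thoraces it was at 2471, 2878 and 2746 CPM in controls and 878, 908 and 906 CPM with RU486. The groups did not overlap in either tissue, and they moved in opposite directions: the head change was 0.49 (adjusted p = 0.024), the thorax change -1.59 (adjusted p = 5.42e-06) and the difference 2.08 ± 0.16 (SE), adjusted p = 2.61e-05. The same order held for complex I, the NADH dehydrogenase, with 30 of 32 differences higher (median 1.35). Its subunit ND-20 (CG9172) was at 1387, 1322 and 1268 CPM in control thoraces and 399, 413 and 471 CPM with RU486, against 114, 116 and 130.1 and then 142, 158 and 143 CPM in heads, a difference of 1.93 ± 0.12 (SE), adjusted p = 1.51e-05. Differences were higher for 8 of 9 genes of complex III and cytochrome c, 4 of 10 of complex IV and 7 of 13 of the ATP synthase, and lower for none of them.

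Within the RU486 thoraces, replicate 3 was less affected than the other 2 for the respiratory chain. The mean over 68 oxidative phosphorylation genes was 7.87, 8.14 and 8.82 log2 CPM in RU486 thoraces and 9.43, 9.44 and 9.31 in control thoraces. COX4 (CoIV), a complex IV subunit, shows it: 541, 748 and 1258 CPM with RU486 against 2135, 2059 and 1909 CPM in controls, with a difference of 1.49 ± 0.34 (SE), adjusted p = 0.0103. Act88F, the flight muscle actin whose promoter drives this GeneSwitch, had the same order, at 272, 384 and 1133 CPM with RU486 against 2831, 2487 and 2508 CPM in control thoraces. It was at 1.51 to 4.72 CPM in all heads. Its difference was 2.51 ± 0.77 (SE), adjusted p = 0.0371, and 2.76 (adjusted p = 0.0862) without head controls 1 and 2. The mitochondrial ribosome, iron-sulfur and ubiquinone genes did not share this spread.

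Mitochondrial ribosomal proteins, which translate the few proteins encoded by mitochondrial DNA, gave 65 higher and 0 lower differences out of 72, with a median of 1.07. Their mean level was 5.22, 5.19 and 5.08 log2 CPM in thorax controls and 4.17, 4.19 and 4.2 with RU486, and 3.69, 3.77 and 3.87 in head controls and 3.85, 3.86 and 3.87 in RU486 heads. In heads edgeR called 0 of them (5 had an unadjusted p under 0.05, DESeq2 called 1 and limma voom 0), and 68 fell in thoraces. mRpS7, a small subunit protein, was at 259, 266 and 258 CPM in control thoraces and 73, 69.3 and 54.4 CPM with RU486. In heads it was at 26.6, 25.5 and 27.3 and 32.2, 38.7 and 31.2 CPM. Its difference was 2.36 ± 0.16 (SE), adjusted p = 1.56e-05. PheRS-m (Aats-phe), the mitochondrial phenylalanyl-tRNA synthetase, had little spread between replicates, at 226, 220.3 and 214 CPM in control thoraces, 69.9, 71.3 and 72.3 CPM in RU486 thoraces and 30.9 to 36.6 CPM in all heads, a difference of 1.74 ± 0.09 (SE), adjusted p = 5.26e-06. Only 7 of 15 tRNA synthetases on the list were called, and their median of 0.36 was below that of the ribosomal proteins.

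Iron-sulfur cluster assembly and lipoate synthesis make the cofactors of the respiratory complexes and of the 2-oxoacid dehydrogenases. This list had the highest median difference of the mitochondrial lists, 1.77, with 11 of 13 genes higher. Las, lipoic acid synthase, was at 256, 300.1 and 299 CPM in control thoraces and 72, 77.3 and 65.9 CPM with RU486, and at 31.4, 29.2 and 30.6 and 32, 38.2 and 30.7 CPM in heads. Its difference was 2.14 ± 0.14 (SE), adjusted p = 1.56e-05. All 9 tested ubiquinone synthesis genes had higher differences (median 1.39). Coq9 (CG30493), which stabilizes the ubiquinone-making complex in other species, was at 165, 205 and 204 CPM in control thoraces and 46.1, 45.8 and 45.2 CPM with RU486. In heads it was at 11.5, 11.8 and 12.3 CPM in controls and 16.7, 21.6 and 14.4 CPM with RU486, and both changes were called, 0.57 in heads and -2.07 in thoraces. The difference was 2.63 ± 0.19 (SE), adjusted p = 2.09e-05.

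TFAM, which packages mitochondrial DNA, was at 219.9, 292 and 270.4 CPM in control thoraces and 47, 62.9 and 91.3 CPM in RU486 thoraces, while the heads were at 19.6 to 22.8 CPM. Its difference was 2.02 ± 0.29 (SE), adjusted p = 0.00081. The rest of the list of mitochondrial DNA and biogenesis factors was mixed, with 3 of 9 called and a median of 0.12. Mitochondrial chaperones and proteases had 7 of 8 differences higher. Hsc70-5, the mitochondrial Hsp70, was at 1057, 1098 and 1110.5 CPM in control thoraces and 515, 553 and 505 CPM with RU486, against 275 to 306 CPM in all heads. The exception was Hsp60, at 379, 329 and 337 CPM in control thoraces and 291, 312 and 301 CPM with RU486, whose difference of 0.17 ± 0.11 (SE), adjusted p = 0.263, did not pass. Protein import had 7 of 12 differences higher and a median of 0.44. The citric acid cycle gave 10 higher and 1 lower of 17, with a median of 0.99.

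**Figure D3:**
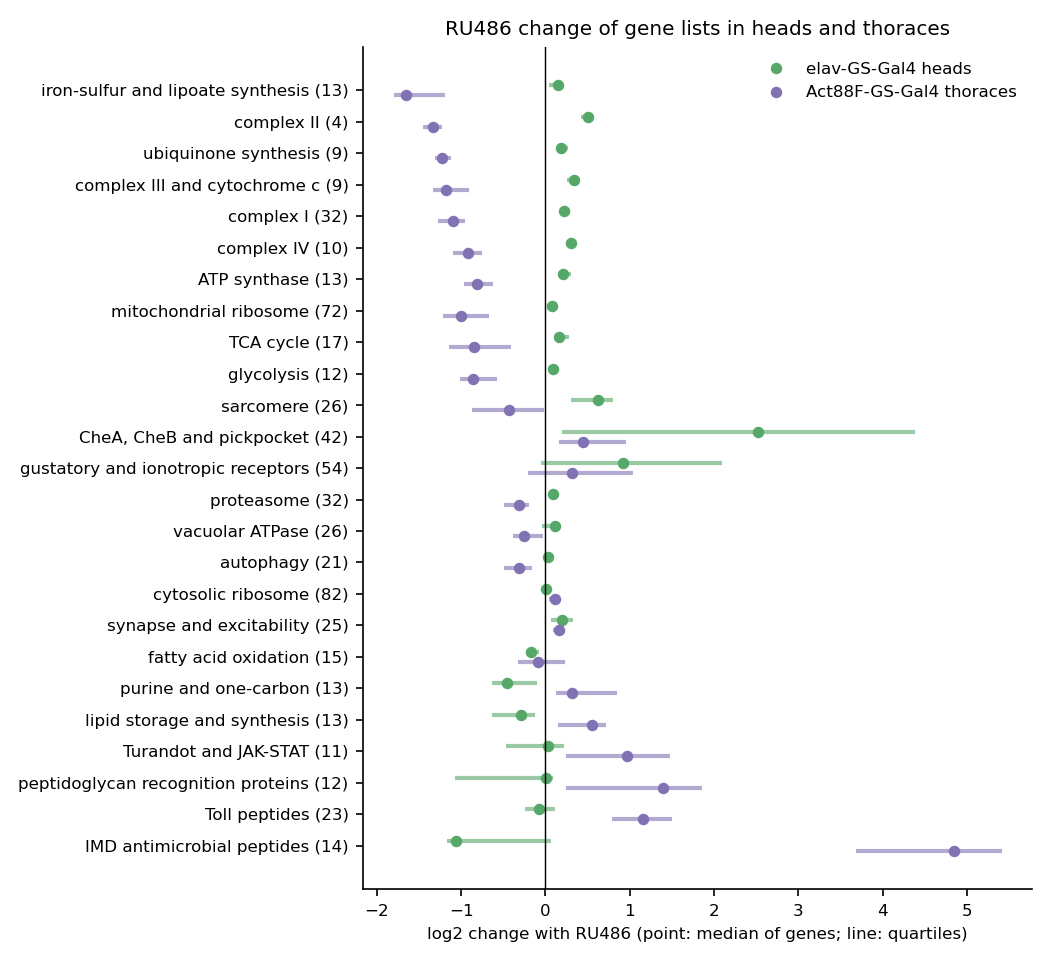
Median log2 change with RU486 of 25 gene lists in heads (green) and thoraces (purple), with lines from the lower to the upper quartile of the genes and the number of tested genes in parentheses. Mitochondrial lists sit slightly above 0 in heads and near -1 in thoraces, and immune peptide lists are raised in thoraces. The sarcomere, lipid storage and purine lists have medians of opposite sign in the 2 tissues. So do the mitochondrial, glycolysis, proteasome, vacuolar ATPase, autophagy, Toll peptide and IMD peptide lists.

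Glycolysis, which feeds flight muscle with pyruvate, gave 9 higher and 1 lower differences of 12, with a median of 0.91. In heads 0 were called by edgeR, DESeq2 or limma voom and 0 had an unadjusted p under 0.05, and 11 fell in thoraces. Pfk, phosphofructokinase, was at 683, 806 and 733 CPM in control thoraces and 346, 364 and 406 CPM with RU486, and at 294 to 330.5 CPM in all heads. The difference was 0.99 ± 0.12 (SE), adjusted p = 0.000346. slgA, the proline dehydrogenase that lets flight muscle burn proline, had a difference of 1.31 ± 0.17 (SE), adjusted p = 0.000475. Gpdh (Gpdh1), the cytosolic glycerophosphate dehydrogenase, moved in both tissues, from 496, 538 and 552 to 686, 648 and 713 CPM in heads and from 755, 859 and 754 to 481, 502 and 583 CPM in thoraces. Its groups did not overlap in either tissue, and its difference was 0.97 ± 0.13 (SE), adjusted p = 0.000565.

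The sarcomere genes that were called rose in heads and fell in thoraces. Of 26 tested, 11 rose and 0 fell in heads (median 0.62), 0 rose and 9 fell in thoraces (median -0.43), and 13 differences were higher and 1 lower (median 1.06). Obsc, sls, Zasp52, Zasp66, bt and up are on this list and were called higher in heads and lower in thoraces. Obsc (Unc-89), obscurin of the M-line, was at 154, 142 and 151 CPM in head controls and 238, 317 and 205 CPM in RU486 heads. In thoraces it was at 1620.5, 1939 and 1804 and 728, 759 and 1015 CPM. The difference was 1.86 ± 0.24 (SE), adjusted p = 0.000436. sls, the titin-like protein, was at 674, 389 and 486 CPM in head controls, 699, 983 and 1032 CPM in RU486 heads, 4789, 6515 and 6976 CPM in thorax controls and 3362, 3268 and 3792 CPM in RU486 thoraces, a difference of 1.62 ± 0.31 (SE), adjusted p = 0.00454. Zasp52, of the Z-disc, gave 1.56 ± 0.22 (SE), adjusted p = 0.000696. RU486 head 2 had the highest sarcomere mean of the heads (7.15, 7.58 and 7.01 log2 CPM over the RU486 heads, 7.03, 6.6 and 6.68 over the head controls). With head controls 1 and 2 left out the list kept a median head change of 0.62, but no gene of it was called in heads, and 8 differences were higher.

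Antimicrobial peptide genes had lower differences and rose in RU486 thoraces. The IMD pathway answers bacterial peptidoglycan in fat body and epithelia and induces antimicrobial peptides. Of 14 IMD-type peptide genes, 13 rose in RU486 thoraces (median 4.84), 0 were called in heads by edgeR (median -1.06; 2 had an unadjusted p under 0.05, DESeq2 called 1 and limma voom 0), and 11 differences were lower, with a median of -5.17. AttB, an attacin, was at 11.3, 9.65 and 15.8 CPM in control thoraces and 641, 424 and 288 CPM with RU486. In heads it was at 46.6, 101 and 39.9 CPM in controls and 87.1, 71.5 and 101 CPM with RU486, and these groups overlapped. The difference was -4.73 ± 0.58 (SE), adjusted p = 0.000396. CecA2, a cecropin, was at 1.34, 1.68 and 4.49 CPM in control thoraces and 161, 127.9 and 44.3 CPM with RU486, against 27.1, 51.1 and 25.1 and 19, 7.16 and 20.2 CPM in heads, a difference of -6.64 ± 0.94 (SE), adjusted p = 0.00101. Control thoraces were thus the lowest of the 4 groups for both peptides. Without head controls 1 and 2 the median difference was -4.37, with 8 lower calls.

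The receptors and the Toll side moved the same way with smaller sizes. Of 23 Toll-type peptide genes, which include the Bomanins, 14 differences were lower and 1 was higher (median -1.27), and 18 rose in thoraces. BomBc3 (CG5791) was at 119, 81.6 and 86.9 CPM in control thoraces and 328, 237 and 324 CPM with RU486, and its head groups overlapped at 79 to 146 CPM, a difference of -1.83 ± 0.36 (SE), adjusted p = 0.0055. Peptidoglycan recognition proteins sense bacteria for both pathways, and 6 of 12 differences were lower. PGRP-SA was at 12.1, 16.9 and 16.2 CPM in control thoraces, 40.9, 44.6 and 38.5 CPM in RU486 thoraces and 13 to 19.9 CPM in all heads, a difference of -1.43 ± 0.25 (SE), adjusted p = 0.00241. The stress peptide TotM, a target of JAK-STAT signalling, went from 57.6, 26.8 and 72.1 to 280.3, 127.6 and 177 CPM in thoraces and from 19.4, 16.1 and 32.4 to 9.92, 11.7 and 7.38 CPM in heads. Its difference was -3.13 ± 0.6 (SE), adjusted p = 0.00512. Members of the IMD and Toll signalling chain went both ways, with 4 higher and 2 lower differences of 19. Fat body markers, a source of these peptides, summed to 10529 to 10784 CPM in thorax controls, 13321 to 19396 CPM in RU486 thoraces, 6569 to 8370.4 CPM in head controls and 7928 to 9777 CPM in RU486 heads. Their part in these results was not tested.

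**Figure D4:**
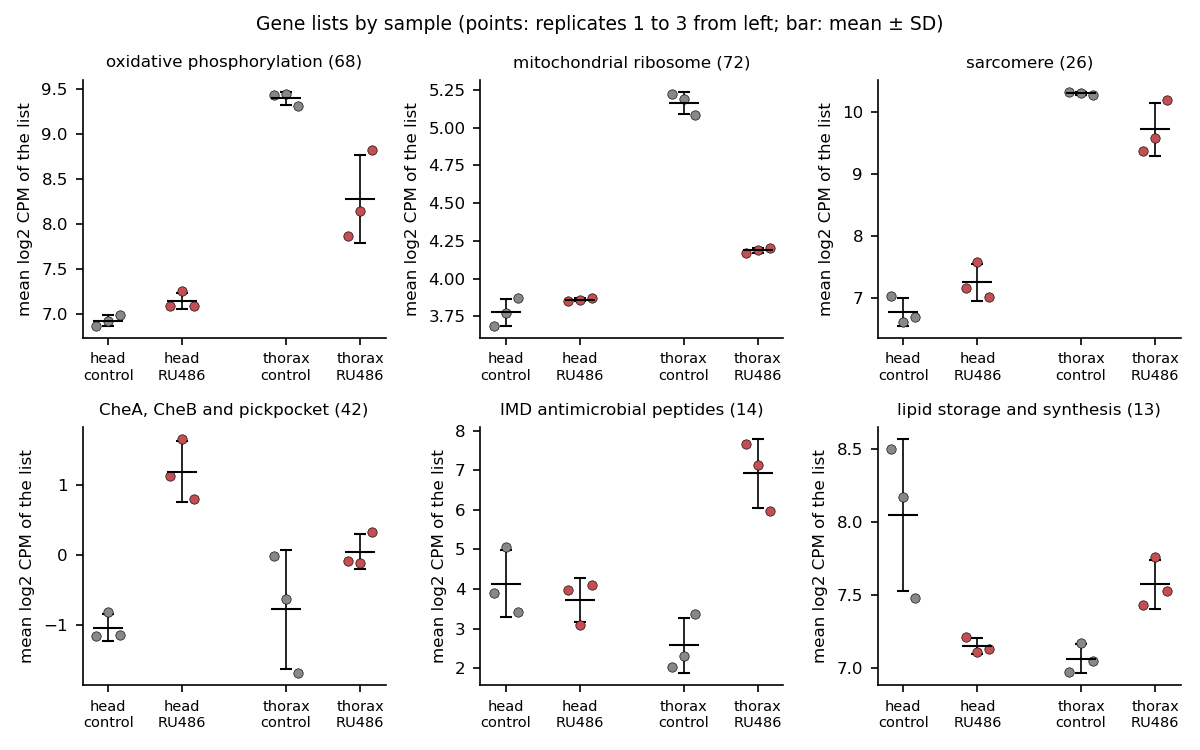
Mean log2 CPM of 6 gene lists in each sample, grey for control and red for RU486 (points are replicates 1 to 3 from left to right, bars are the mean ± SD of 3 samples). Oxidative phosphorylation and mitochondrial ribosome means fall in RU486 thoraces alone, the IMD peptide mean rises in RU486 thoraces, and head controls 1 and 2 raise the lipid list mean.

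Lipid storage and synthesis genes had lower differences, with medians of opposite sign in the tissues. Of 13 lipid storage and synthesis genes, 6 fell in heads (median -0.29), 7 rose and 1 fell in thoraces (median 0.55), and 10 differences were lower and none higher (median -0.86). Desat1 (desat1), the stearoyl-CoA desaturase, was at 3675, 3908 and 4162 CPM in head controls and 2954, 2995 and 3172 CPM in RU486 heads. In thoraces it was at 2504, 2876 and 2619.9 and 3978, 3791 and 4272 CPM. Both pairs of groups were apart, and the difference was -0.95 ± 0.12 (SE), adjusted p = 0.000314. bmm, the Brummer triglyceride lipase, was at 221, 223 and 245 CPM in head controls and 144, 147 and 151 CPM with RU486, and at 117, 139.5 and 139 and 148, 157 and 154 CPM in thoraces. Its head change was -0.64 (adjusted p = 0.00144), its thorax change 0.22 (adjusted p = 0.0496) and its difference -0.86 ± 0.11 (SE), adjusted p = 0.000355. With head control 3 alone, 9 differences on the list were lower (median -0.84) and 1 gene fell in heads. Fatty acid oxidation gave 6 lower and 1 higher differences of 15, but its median difference was 0.08, with 9 genes above 0. Its median change was -0.17 in heads and -0.09 in thoraces. The dehydrogenase scu went from 121, 113 and 108 to 172, 180.0 and 175 CPM in thoraces and from 168, 194 and 198 to 167, 158 and 164 CPM in heads, a difference of -0.81 ± 0.1 (SE), adjusted p = 0.000336.

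De novo purine synthesis and the folate cycle that feeds it also had mainly lower differences. Of 13 genes, 5 fell in heads, 6 rose and 3 fell in thoraces, and 8 differences were lower and 2 higher, with a median of -0.75. Nmdmc, the mitochondrial methylene-tetrahydrofolate dehydrogenase, was at 52.6, 42.5 and 63.2 CPM in head controls and 20, 20.8 and 22.5 CPM in RU486 heads. In thoraces it was at 33.8, 28.8 and 47.2 CPM in controls and 79.2, 158 and 176 CPM with RU486. Its difference was -3.23 ± 0.41 (SE), adjusted p = 0.000453, and -3.5 (adjusted p = 0.0025) without head controls 1 and 2. Paics (ade5), which joins 2 steps of the purine ring, was at 890.5, 921 and 1057 and 645, 568 and 656 CPM in heads and at 349.7, 391 and 438 and 684, 790.0 and 714 CPM in thoraces, a difference of -1.51 ± 0.15 (SE), adjusted p = 0.000109. Adsl (CG3590), adenylosuccinate lyase, gave -1.57 ± 0.17 (SE), adjusted p = 0.000136. Adss (CG17273), which leads from the finished ring to AMP, went the other way: it was at 446, 465 and 468 CPM in control thoraces, 245, 256 and 271 CPM in RU486 thoraces and 122 to 147 CPM in all heads, a difference of 0.95 ± 0.09 (SE), adjusted p = 9.34e-05.

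Other genes called in both tissues with opposite signs are shown by sample in the plot of 10 such genes, which includes Nmdmc. CG34423, a gene with no name beyond its number, was at 769, 527 and 535 CPM in control thoraces and 86.3, 93.4 and 76.8 CPM with RU486, and at 19.6, 19.5 and 18.7 and 31.2, 40.9 and 27.1 CPM in heads. All RU486 heads lay above all head controls, and the difference was 3.62 ± 0.25 (SE), adjusted p = 1.82e-05. Npl4, a cofactor of the p97 segregase, was at 3918, 4462 and 4566 CPM in control thoraces, 860.3, 969 and 1182 CPM in RU486 thoraces, 132, 82.3 and 86.7 CPM in head controls and 191, 322 and 162 CPM in RU486 heads, a difference of 3.27 ± 0.38 (SE), adjusted p = 0.000243. Cht10 (Cht3), a chitinase, differed mainly through heads, at 12.2, 10.4 and 12.4 CPM in controls and 52.1, 92.9 and 45.5 CPM with RU486, with thoraces at 2.81 to 6.36 CPM and a difference of 3.33 ± 0.38 (SE), adjusted p = 0.00026. The amylase Amy-d was at 107, 76 and 78 CPM in head controls and 21, 24.7 and 29.8 CPM in RU486 heads, and at 3265, 3124 and 3006 and 4167, 4416 and 5248 CPM in thoraces. Head control 3, without abdominal transcripts, was as high as head control 2, and the difference was -2.35 ± 0.23 (SE), adjusted p = 9.54e-05, and -2.2 (adjusted p = 0.00102) without head controls 1 and 2. Amy-d and Amy-p are near-identical copies, so reads could have been split between them; Amy-p gave -2.74 ± 0.34 (SE), adjusted p = 0.000363. The peroxiredoxin Prx6c (Prx2540-2), 1 of a set of close copies, gave -1.82 ± 0.17 (SE), adjusted p = 7.05e-05, CG33474 gave -1.76 ± 0.35 (SE), adjusted p = 0.0055, and CG5966, a lipase-like gene, gave -1.66 ± 0.25 (SE), adjusted p = 0.000964.

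**Figure D5:**
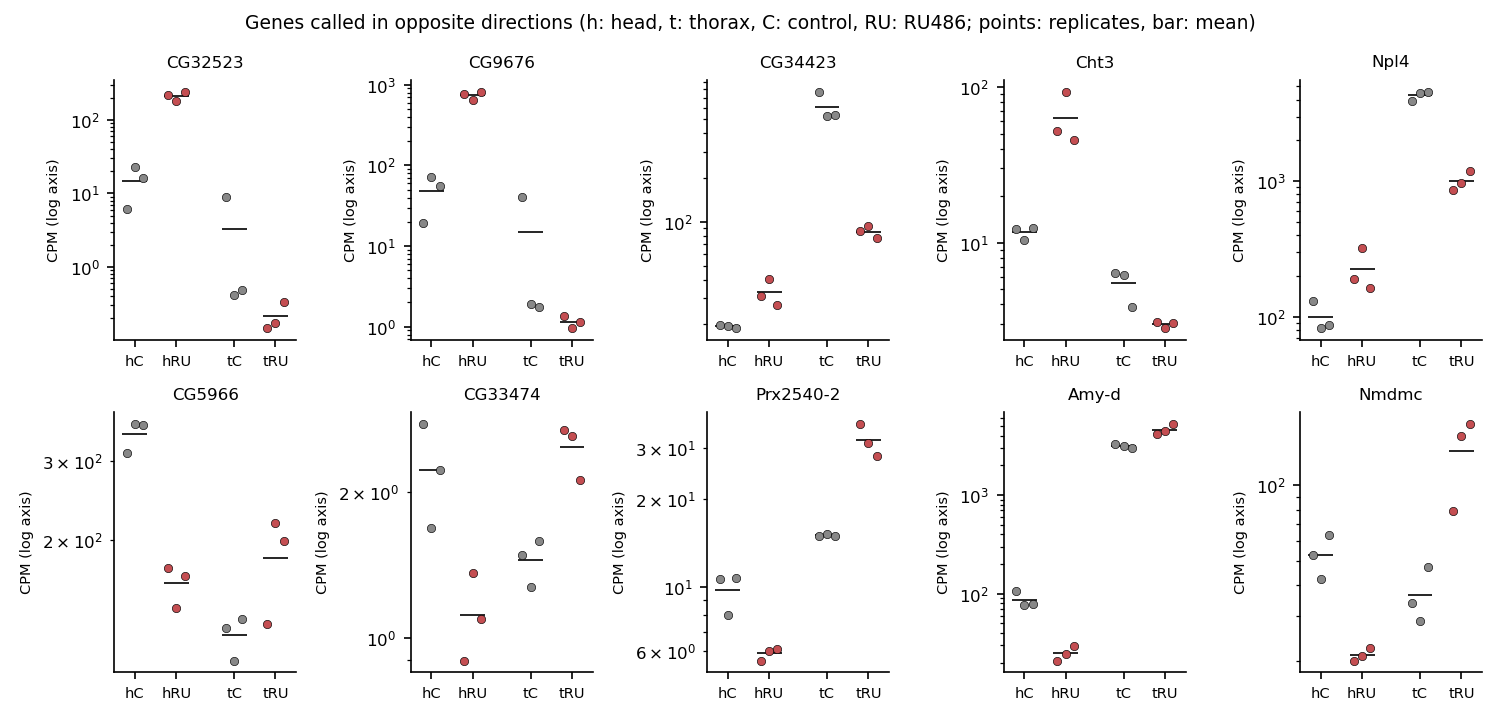
CPM (log axes) of 10 genes called in both tissues with opposite signs, by group; points are the 3 replicates, grey for control and red for RU486, and bars are means. The upper row rises in RU486 heads and falls in RU486 thoraces, and the lower row falls in RU486 heads and rises in RU486 thoraces; CG32523 and CG9676 in control thoraces are high in replicate 1 only.

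Of the genes called in both tissues, 106 rose in heads and fell in thoraces, 33 fell in heads and rose in thoraces, 202 rose in both and 14 fell in both. Leaving out head controls 1 and 2, which leaves 1 head control, the opposite groups kept both signs for 106 of 106 and 33 of 33 genes. Most of these were no longer called in both tissues. Genes that rose in both kept their signs for 202 of 202, and genes that fell in both for 10 of 14. This fit shares head control 3, the RU486 libraries and all thorax controls with the first, and the genes were picked by these signs. The kept signs are therefore no independent support. Without thorax control 1, 84 and 16 genes of the opposite groups were still called in both. A difference can also be called among genes that rose in both tissues. to (takeout), a clock- and feeding-related carrier protein, was at 46.3, 49.3 and 52 CPM in head controls and 165, 195 and 196 CPM in RU486 heads, and at 335, 257 and 273 and 386, 503 and 602 CPM in thoraces. It rose in both, more in heads, with a difference of 1.13 ± 0.22 (SE), adjusted p = 0.00493.

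Of the chemosensory lists, the CheA, CheB and pickpocket families had a share of higher differences above that of all tested genes in edgeR. CheA and CheB proteins are small secreted proteins of taste hairs, some with roles in pheromone response, and pickpocket genes encode sodium channels of sensory neurons. Of 42 tested genes of these families, 23 rose in heads and 0 fell, 4 rose in thoraces, and 17 differences (40.5%) were higher and 1 lower, with a median of 2.12. Only 16 of the 42 were measured in both tissues. DESeq2 called 20 differences higher and 2 lower, beside 20.3% higher over all tested genes. Limma voom called 7 higher and 0 lower, beside 15.9% higher over all tested genes, so the larger share depended on the tool. CheB93a was at 0.269, 1.27 and 0.678 CPM in head controls and 18.9, 37.8 and 11.1 CPM in RU486 heads, and at 3.28, 2.03 and 0.577 and 2.42, 1.94 and 2.24 CPM in thoraces. All 3 head controls were near 1 CPM or below, and the difference was 4.8 ± 1.0 (SE), adjusted p = 0.00739. CheA87a was at 1.71, 3.3 and 2.51 CPM in head controls and 42, 73.5 and 33 CPM in RU486 heads, against 1.15 to 9.44 CPM in thoraces, a difference of 3.81 ± 0.85 (SE), adjusted p = 0.0107. CheB38b gave 4.13 ± 1.02 (SE), adjusted p = 0.0172. ppk, a channel of pain-sensing neurons, rose in both tissues, from 2.32, 1.64 and 1.94 to 6.57, 6.97 and 6.38 CPM in heads and from 2.54, 2.1 and 1.91 to 2.91, 2.97 and 3.46 CPM in thoraces, with a difference of 1.25 ± 0.25 (SE), adjusted p = 0.00515. With head control 3 alone, 8 differences of the families were higher and 4 genes rose in heads, with a median head change of 2.23.

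Some genes of the sensory hair as a structure were called too. nompA, which ties the sensory dendrite to its cuticle, was at 2.41, 3.3 and 3.19 CPM in head controls and 24.1, 31.1 and 21 CPM in RU486 heads, and at 2.42, 2.16 and 1.34 and 2.87, 3.17 and 3.96 CPM in thoraces, a difference of 2.35 ± 0.33 (SE), adjusted p = 0.000784. nompC, a touch channel, was at 3.41, 2.97 and 3.84 and 9.63, 15.7 and 10.7 CPM in heads and at 22.6, 22.5 and 21.8 and 27.1, 26.8 and 30.5 CPM in thoraces, a difference of 1.48 ± 0.23 (SE), adjusted p = 0.0014. Of 22 ciliated sensory neuron genes, 9 rose in heads and 5 differences (22.7%) were higher, against 17.3% of all tested genes. Oseg2 (osm-1), a part of ciliary transport, moved in both tissues, 0.79 in heads and -1.01 in thoraces, with a difference of 1.79 ± 0.22 (SE), adjusted p = 0.000351. Of 54 gustatory and ionotropic receptors, 17 rose in heads and 4 differences (7.41%) were higher. Of 36 odorant receptors, 7 rose in heads and 3 differences (8.33%) were higher. Both shares of differences were below that of all tested genes, while 6.25% of all tested genes rose in heads. Only 6 of the gustatory and ionotropic receptors and 3 of the odorant receptors were measured in both tissues, so their shares of differences say little. Of 36 odorant-binding proteins, 13 rose and 2 fell in heads, 16 rose and 0 fell in thoraces, and 5 differences (13.9%) were higher and 4 (11.1%) lower. Obp19b was at 2.82, 6.91 and 3.66 CPM in head controls and 80.7, 128.6 and 62.5 CPM in RU486 heads, with a difference of 3.51 ± 0.9 (SE), adjusted p = 0.0204, and 3.79 (adjusted p = 0.0597) without head controls 1 and 2. In the same heads 11 of 26 sarcomere genes and 3 of 9 flight muscle markers were called higher. The markers summed to 2994 to 3358 CPM in head controls and 4029 to 5437 CPM in RU486 heads. The flight muscle genes TpnC4, at 4.81, 0.94 and 0.977 CPM in head controls and 0.726, 0.863 and 0.766 CPM in RU486 heads, and fln, at 2.47, 0.197 and 0.244 and 0.235, 0.249 and 0.31 CPM, were not called higher. The part of muscle material in the head changes was not tested.

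The largest higher differences among genes measured in both tissues belonged to 6 genes that moved as a block: CG32523, CG8329, CG9676, CG3088, CG11211 and CG8343, with differences of 7.9, 7.79, 7.65, 7.63, 7.62 and 7.37. CG8329, a serine protease-like gene, was at 54.3, 193 and 134 CPM in head controls and 1897, 1595 and 2080.4 CPM in RU486 heads. CG8343, a C-type lectin-like gene, was at 49.1, 205 and 136 and 1678, 1473 and 1896 CPM. In all 6 genes every RU486 head lay above every head control. Their thorax values were low except in thorax control 1: CG8329 was at 95.2, 1.96 and 1.91 CPM in thorax controls and 1.38, 1.71 and 3.65 CPM with RU486. Thorax control 1 is the library with photoreceptor transcripts. Without it the difference of CG8329 was 3.72 (adjusted p = 0.00914) and that of CG32523 5.01 (adjusted p = 0.00655), and 9 of the 10 largest higher differences were still called, with CG11211 at 3.51 (adjusted p = 0.0628) as the exception. Leaving out head controls 1 and 2 kept 3 of the 10 calls, while the 10 differences stayed at 3.81 to 7.84: CG8329 was at 7.72 (adjusted p = 0.113) and CG32523 at 7.84 (adjusted p = 0.0297). Among genes measured in heads only, CG7829 and CG7299 had the same head pattern, from 4.73, 14.9 and 11.6 to 162, 138 and 177 CPM and from 2.61, 8.64 and 6.66 to 81.1, 66.4 and 89.5 CPM. CG15617, measured in thoraces only, went from 99.4, 156 and 137 to 2.32, 4.03 and 7.97 CPM there, a difference of 4.0 ± 0.9 (SE), adjusted p = 0.0111.

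Among genes measured in both tissues that met the rule for named genes, the largest lower differences belonged to gut genes and rested on head controls 1 and 2. Outside this rule values went lower, to -19.1 over all tested genes and to -18.98 on the accessory gland list. Jon99Ci, a midgut protease, was at 113, 10.8 and 0.0136 CPM in head controls, 0 CPM in all RU486 heads and 122 to 399 CPM in thoraces, and its fitted difference, -15.11, depends on the prior count. CG12374, a carboxypeptidase-like gene, was at 204, 30.1 and 0.0407 CPM in head controls, 0.0146 to 0.0365 CPM in RU486 heads and 307 to 889 CPM in thoraces, a difference of -10.95 ± 2.95 (SE), adjusted p = 0.0243. In both genes head control 3 lay at the level of the RU486 heads. The 10 largest lower differences under the rule ran from -15.11 to -10.39, and without head controls 1 and 2 they ran from -3.90 to -0.13. Lists of abdominal tissue followed: the midgut list had 15 lower differences of 25 with these libraries and 0 without them, the testis list 7 of 12 and then 0, the accessory gland list 4 of 17 and then 1. The amylase and maltase list had 7 lower and 1 higher differences of 13 with them and 2 lower and 3 higher without.

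With TMM scaling, protein turnover lists had small higher differences from the thorax side. Proteasome subunits gave 16 higher differences of 32 (median 0.43), autophagy genes 10 of 21 (median 0.32) and vacuolar ATPase subunits 13 higher and 3 lower of 26 (median 0.33). The higher shares were 50.0%, 47.6% and 50.0%, beside 17.3% over all tested genes. Rpn8 (Mov34), a lid subunit of the proteasome, was at 172, 136 and 139 CPM in control thoraces, 107, 104 and 91.5 CPM with RU486 and 63 to 72.6 CPM in all heads, a difference of 0.7 ± 0.13 (SE), adjusted p = 0.00392. With head control 3 alone the called differences were 5, 4 and 7, at medians of 0.43, 0.27 and 0.33. Scaled to total counts alone, they were 2, 5 and 8, beside 10.9% higher over all tested genes. The proteasome share was then below that of all tested genes, so the result for this list depends on the scaling. Sesn, a stress-induced inhibitor of TOR signalling, was at 812, 1367 and 1266 CPM in control thoraces and 283, 297 and 392 CPM with RU486, and at 134 to 171 CPM in all heads, a difference of 1.91 ± 0.28 (SE), adjusted p = 0.000841. foxo, the insulin-regulated transcription factor, gave 0.8 ± 0.19 (SE), adjusted p = 0.0129.

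Cytosolic chaperones were divided. Hsp83, the fly Hsp90, was at 1888, 1754 and 1960.5 CPM in control thoraces and 1041, 1235 and 1101 CPM with RU486, and at 509 to 598 CPM in all heads, a difference of 0.69 ± 0.13 (SE), adjusted p = 0.00317. Hsp68, an inducible Hsp70, was at 44.5, 24.8 and 32.5 and 41.1, 91 and 90.5 CPM in thoraces and at 31.8, 23.6 and 32.8 and 17.6, 18.6 and 19.5 CPM in heads, a difference of -1.79 ± 0.43 (SE), adjusted p = 0.0139. Hsp27 gave -3.32 ± 0.64 (SE), adjusted p = 0.00451, and the small heat shock protein Hsp26 gave -0.9 ± 0.47 (SE), adjusted p = 0.175, which did not pass. CG13133, a small heat shock protein-like gene, was at 0.586, 0.503 and 0.434 CPM in head controls and 9.39, 17.6 and 7.46 CPM in RU486 heads, a difference of 3.74 ± 0.61 (SE), adjusted p = 0.00187.

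Detoxification families had calls in both directions, beside 17.3% higher and 11.3% lower over all tested genes. Of 85 cytochrome P450 genes, 15.3% had higher and 10.6% lower differences, and of 67 glutathione and glucuronosyl transferases 16.4% higher and 20.9% lower. Cyp4ae1 was at 25.6, 34.9 and 31.2 CPM in control thoraces, 10.3, 10.6 and 10.1 CPM with RU486 and 3.8 to 5.01 CPM in all heads, a difference of 1.4 ± 0.18 (SE), adjusted p = 0.000492. GstE11 (CG5224) gave 1.27 ± 0.16 (SE), adjusted p = 0.000396. Of 51 cuticle proteins, 11.8% had higher and 15.7% lower differences. Cpr65Au rose in both tissues, from 89.1, 102 and 114 to 296, 275 and 299.8 CPM in heads and from 164, 175 and 146 to 209, 199.8 and 196 CPM in thoraces, a difference of 1.2 ± 0.13 (SE), adjusted p = 0.000207. In the clock list, vri, a repressor of the Clock gene, gave 1.42 ± 0.21 (SE), adjusted p = 0.000956, with a head change of 0.52 and a thorax change of -0.89. white (w), the eye pigment transporter gene whose short form marks many fly transgenes, was at 85.4, 90.4 and 85.8 CPM in control thoraces, 15.7, 19.2 and 47.5 CPM in RU486 thoraces and 24.3 to 36.5 CPM in all heads. Its difference was 1.39 ± 0.48 (SE), adjusted p = 0.0546, which did not pass.

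Housekeeping and neuronal lists had few calls. Cytosolic ribosomal proteins had a median difference of -0.09, with 1 higher and 2 lower of 82. Scaled to total counts alone, the median was -0.31 with 20 lower. Synapse and excitability genes, of the cell type in which elav-GS-Gal4 is active, had 0 calls of 25 for the difference and a median of 0.09, and the neuron markers had 0 of 9. DESeq2 and limma voom also called 0 on both lists, and 0 genes had an unadjusted p under 0.05 in edgeR. In heads 24 of the 25 synapse changes were above 0 (median 0.2), and RU486 head 3 lay apart. The list mean was 7.82, 7.72 and 8.47 log2 CPM in RU486 heads and 7.76, 7.56 and 7.96 in head controls. The sodium channel gene para was at 35.2, 33.5 and 285 CPM in RU486 heads. The spread from this library limits what the missing calls show. elav itself was at 133, 126.5 and 162 CPM in head controls and 154, 149 and 198 CPM in RU486 heads, a difference of 0.23 ± 0.19 (SE), adjusted p = 0.404. Phototransduction genes had a high median difference, 2.37, and 1 call of 20. The median came from thorax control 1 and was -0.78 without it. Rh4, a rhodopsin, had this pattern: it was at 77.7, 1.51 and 2.25 CPM in thorax controls and 2.09, 2.69 and 5.06 CPM in RU486 thoraces.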

How the data were processed

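The authors extracted RNA with TRIzol and RNeasy, made stranded TruSeq mRNA libraries and sequenced them on an Illumina HiSeq instrument. Reads were mapped to the fly genome, and HTSeq gave the count of each gene. BWA, STAR and the dm3 build are also named in the submitters' processing notes, with no version. The deposited values are raw counts per gene for each sample. Lines that name no gene were left out of library sizes and tests. The 12 samples (34020840 to 73692587 counts on genes) were fitted together in R 4.3.3 with edgeR 4.0.16: TMM scaling, filterByExpr (11388 of 15682 gene symbols tested), glmQLFit with robust estimation and glmQLFTest, with Benjamini-Hochberg adjustment over all tested genes and a threshold of 0.05. The biological coefficient of variation was 31.3%. 3 contrasts came from this fit: head change, thorax change and their difference. The depth limits the precision of low values, and counting error is small beside the spread between replicates. CPM are counts scaled to the TMM library size, and a gene was measured in a tissue at a mean of at least 1 CPM. On simulated counts for this difference over 11388 genes, 50 of 100 genes with a 2-fold change and 85 of 100 with a 4-fold change were recovered, with 8 false calls. Changes were planted in RU486 thoraces alone, in genes measured in both tissues, and no simulated library held material of another tissue. The 8 false calls are therefore no error rate for the real libraries.

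The members, gene lists and tests were chosen with earlier results of these data known. Named genes were the 10 largest called differences in each direction among genes measured in both tissues, with a log2 CPM averaging 1 or more and no overlap of RU486 and control samples in at least 1 stock; the 5 largest in each direction among genes measured in 1 tissue; the 5 largest in each direction among genes called in both tissues with opposite signs; up to 3 genes per list by p; and genes the study names. Other genes named in the text were chosen after their values were seen. Alternatives were other scalings and filters, DESeq2 1.42.0, limma 3.58.1 (voom), all 18 samples, a testis covariate, a replicate block and leaving out each library. Leaving out the doubted control libraries together was added after seeing the data. Symbols were matched to a newer annotation for current names only, so no coordinates or sequences are given: 11943 matched as current symbols and 3426 as synonyms.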

Additional observations from a re-analysis of the deposited data

Results flagged for a closer look

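The effect of RU486 differed between heads and thoraces, by a test of the difference itself, for 1974 genes in the higher and 1284 genes in the lower direction. Of the genes called in both tissues with opposite signs, the largest higher differences were those of CG32523 (7.90), CG9676 (7.65), CG34423 (3.62), Cht3 (3.33) and Npl4 (3.27). The largest lower differences were those of Nmdmc (-3.23), Amy-d (-2.35), Prx2540-2 (-1.82), CG33474 (-1.76) and CG5966 (-1.66). Without thorax control 1 all 5 higher and all 5 lower differences were still called, at 3.23 to 5.01 and at -3.15 to -1.66. Without head controls 1 and 2, which leaves 1 head control, they were at 3.24 to 7.84 and at -3.5 to -1.74. These values concern the difference, which can be called without a call in each tissue. CG32523 and CG9676 were high in control thoraces in replicate 1 only. Without thorax control 1, 84 of 106 genes higher in heads and lower in thoraces were still called in both. For the reverse signs it was 16 of 33. With 3 samples a group, no formal test for an outlying sample was run on single values.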

How the results depend on the processing

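Counts of calls and list medians moved with the processing, and the cause was not tested. Of 59 list medians, 30 moved by more than the spread between replicates with total-count scaling, 29 with all 18 samples, 28 with the 3 doubted controls left out and 0 with the DESeq2 test. Against 1974 higher and 1284 lower differences, total-count scaling gave 1243 and 2723 (thorax 3113 higher and 1415 lower), and upper quartile scaling 1641 and 1871. DESeq2 gave 1974 lower differences. Limma voom gave 557 lower differences and 59 lower in heads, and with quality weights 3449 higher and 2116 lower differences, 2840 higher and 1514 lower in heads and 2552 higher in thoraces. The quality weights of head controls 1, 2 and 3 were 0.233, 6 and 0.14. The weighted head change thus rests mainly on head control 2, which held abdominal transcripts. An unequal-variance contrast gave 1000 and 225, with 274 higher and 763 lower in thoraces and 0 and 0 in heads, where 1316 genes had an unadjusted p under 0.05. With no count filter 1350 genes fell in heads, and with a mean of at least 10 counts 1485. All 18 samples in 1 fit gave 2311 lower differences and 2676 lower in heads. A testis covariate gave 1119 and 654 (heads 103 and 13). Without head controls 1 and 2 the counts were 1132 and 610 (heads 103 and 12), and without thorax control 1 as well 854 lower differences, with 1.11% of tested genes higher and 0.137% lower in heads. Leaving out 1 library at a time gave 1352 to 2619 higher and 342 to 2330 lower differences, 239 to 1800 and 8 to 2894 in heads, and 856 to 1641 and 1519 to 2292 in thoraces. Same-numbered samples did not deviate together more than others (r of -0.132 to 0.0802, against -0.13 to 0.145 for different numbers). With 3 samples a group and doubted controls among them, this check cannot exclude a pairing. The replicate block gave 1462 and 739 differences, 397 and 302 in heads, and 1077 and 1764 in thoraces. Of 213 named genes, CG12374 turned to 0.42 (adjusted p = 0.904) with the testis covariate, and Jon65Aiii to 0.84 without head controls 1 and 2 and 0.93 without thorax control 1 as well.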
